A study of Homo sapiens with 4 samples.

Results

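The 9 genes described here encode 5 Eph receptors (EPHA2, EPHA4, EPHB2, EPHB4 and EPHB6) and 4 ephrins (EFNA1, EFNA5, EFNB1 and EFNB2). They were chosen by gene symbol, among 36203 Ensembl identifiers in the deposited table, and all 9 were found in it. The study compared RNA recovered with an antibody against YTHDF3 (RNA immunoprecipitation and sequencing, RIP-seq) with input RNA, in 2 libraries each and no other group. By its title it asks which transcripts carrying N6-methyladenosine (m6A), the mark that YTHDF3 binds, are tied to spread of breast cancer to the brain. The cells are labelled as the breast cancer line MDA-MB-231 in the sample fields and as MDA-MB-231Br, its derivative selected for growth in the brain, in the growth protocol. All groups shared culture in DMEM with serum, and no treatment is labelled. The extraction text, which mentions embryos and an m6A antibody, is at odds with the labelled cells and antibody. Separate cultures are not labelled for the libraries, so the p-values rest on the spread among 4 libraries, and that spread may be technical only. A RIP with a control antibody was not analysed here, so RNA bound to YTHDF3 and other RNA retained in the procedure cannot be told apart.

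Eph receptors are receptor tyrosine kinases, and ephrins are their ligands, which stay attached to the surface of the neighbouring cell. Binding therefore needs contact between cells, and it signals into both of them, forward through the receptor and in reverse through the ephrin. A-type ephrins hang on the membrane by a lipid anchor and mostly bind EphA receptors, while B-type ephrins cross the membrane, carry a cytoplasmic tail and mostly bind EphB receptors. The family steers cell repulsion, adhesion and migration, and EPHA2 is known for its high level in basal-like breast cancer.

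YTHDF3 binds m6A, which in mammalian mRNA is often placed in the sequence GGACU and often near the stop codon. The GGACT (DNA letters) nearest to the stop codon is therefore shown for the 6 genes the results below turn on, read in the sense direction from GENCODE release 29 reference transcripts (GRCh38), with the motif in capitals and 12 bases on each side. Whether any of these sites is methylated was not measured here.
EPHA2, chr1:16125240-16125268, minus strand, coding: tacagcctgctgGGACTcaaggaccaggt
EPHB2, chr1:22910447-22910475, plus strand, coding: ccaactcatgctGGACTgttggcagaagg
EPHB4, chr7:100803387-100803415, minus strand, 3′ UTR: ggggcagagtggGGACTcacagaggcccc
EFNA5, chr5:107381155-107381183, minus strand, 3′ UTR: catcctaagaagGGACTtgttattgggtt
EFNB1, chrX:68840567-68840595, plus strand, coding: gaaggtgagtggGGACTacgggcaccctg
EFNB2, chr13:106493099-106493127, minus strand, coding: gaaggtcagcggGGACTacgggcacccgg

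The sites of EFNB1 and EFNB2 were alike. Both begin 75 bases before the last base of the stop codon, and 26 of their 29 bases are identical. In EPHA2 and EFNA1 the nearest GGACT begins 41 and 43 bases before the last base of the stop codon, and in EPHB4 and EFNA5 it begins 58 and 84 bases after it. It was farther away in EPHB6 (185 bases), EPHB2 (381 bases) and EPHA4 (420 bases). Thus 6 of the 9 genes held a GGACT within 100 bases of the stop codon, a window chosen after the distances were seen, against 22.8% of the 10845 protein-coding genes tested for RIP against input that have a reference transcript. All 9 held the motif somewhere in the transcript, from 2 copies in EFNA1 to 11 in EPHB6, as did 91.4% of those genes. The densest was EPHB6, listed at 0 FPKM in every library, with 2.74 copies per kilobase, followed by EPHB2 with 2.72 and EPHA2 with 2.27. EFNB2 had 1.80, EPHB4 1.62, EFNB1 1.51 and EPHA4 1.42. The lowest were EFNA5 with 1.12 and EFNA1 with 1.04, against a median of 0.921 over the genes tested. All 10 copies of EPHB2 lie in its coding sequence, whereas 5 of the 6 copies of EFNA5 lie in its 3′ UTR.

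The table gives FPKM, reads corrected for gene length and for the total of each library, as far as its values show. Depth is not stated. If the commonest low value stands for 1 read, 1 read per kilobase was worth between 0.0964 FPKM in RIP 1 and 0.322 FPKM in RIP 2, which makes RIP 2 the shallowest library. RIP 2 also stood apart in signal from chromosome 1, which held 35.9% of its length-weighted signal against 9.2% to 10.6% in the other libraries. EPHA2, EPHB2 and EFNA1 lie on that chromosome, and their results are given with and without RIP 2. The markers fixed for the line (VIM, CD44, KRT18, KRT8, EGFR, AXL and CAV1) were all above 13 FPKM in every library, and of the genes that the line lacks, ESR1 and CDH1 were listed at 0 in every library and PGR at 0.118 and 0.0796 FPKM in the inputs and 0 in RIP. The leukocyte, endothelial, neuronal, liver and embryonic markers were at 0 or, for PECAM1 and POU5F1, below 0.7 FPKM. YTHDF3 mRNA measured 10.3 and 13.8 FPKM in input 1 and input 2, and 75.8 and 72.4 FPKM in RIP 1 and RIP 2.

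In YTHDF3 RIP, EPHA2, EPHB2 and EFNB2 were higher than in input, none of the 9 was lower, and the others did not pass. Of the 9 genes, 8 passed the filter of at least 1 FPKM in at least 2 of the 4 libraries. EFNA1 did so only through its RIP libraries, EPHA4 would not have done so on its inputs alone, and EPHB6 was listed at 0 in every library. A gene was called where its Benjamini-Hochberg adjusted p in limma was under 0.05, on log2(FPKM + 1), a scale on which weakly expressed genes change less than their FPKM does. The count of 3 of 8 stands beside 15.4% of the 12848 genes tested that were called higher, and the count of 0 beside 24.3% called lower. Of the 10852 protein-coding genes tested, 1818 were higher and 2153 lower. In the deciles of transcript length that hold the 8, between 14.4% and 21.2% of protein-coding genes were called higher. At an unadjusted p under 0.05 in limma, 4 of the 8 were higher and 0 lower, beside 2979 higher and 3839 lower of the 12848 genes tested. The 4 include EFNA1, which passed the filter only through its RIP libraries. The median log2 fold change of the 8 was 0.99, against -0.10 over all genes tested and 0.12 over the protein-coding ones. All 3 calls were among the 6 genes at 1 FPKM or more in both inputs. EPHA2 and EPHB2 lie on chromosome 1, where 25.7% of 1358 genes tested were called higher, and EFNB2 lies outside chromosomes 1 and 10, where the share was 13.7% of 10937. Higher genes made up 38.8% of all calls on the deposited scale, 52.1% after quantile normalization and 50.8% with RIP 2 adjusted for position. The position adjustment takes out the median difference between the RIP libraries, so its p-values leave out that part of their spread. Where 1 library is left out, the spread comes from the libraries of the other group alone. With either input left out, none of the 8 passed, and no gene of the whole table did (limma).

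**Figure D1:**
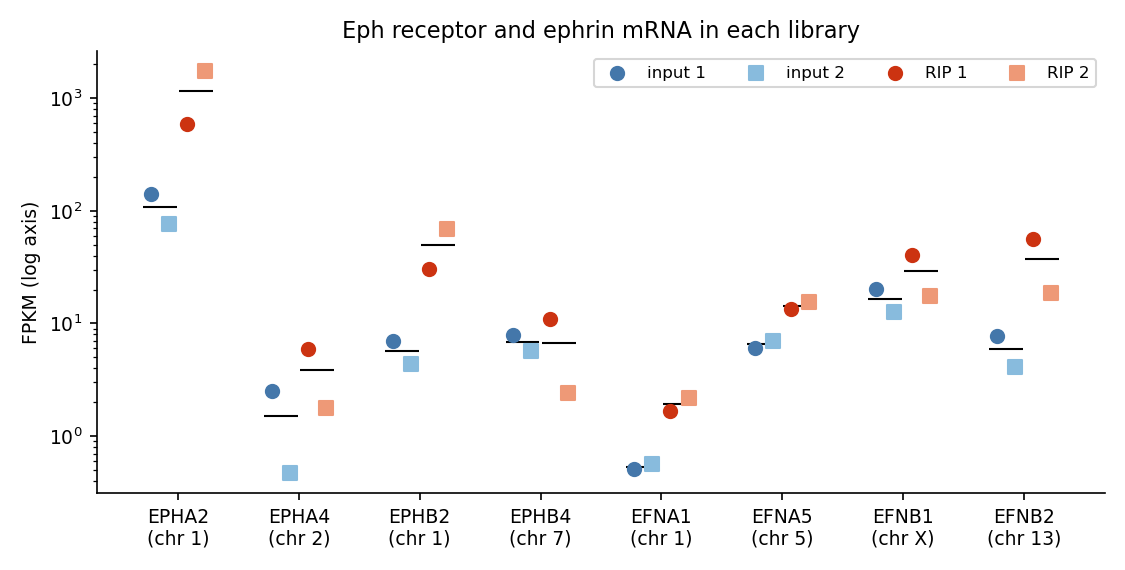
FPKM on a log axis for the 8 genes tested, with circles for library 1 and squares for library 2 of each group (blue input, red RIP) and black lines at the group means (n = 2). EPHA2 sits far above the rest in every library, and in EPHA2, EPHB2, EFNA1, EFNA5 and EFNB2 both RIP libraries lie above both inputs; EPHB6, listed at 0 throughout, is not drawn.

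Among the receptors, EPHA2 dominated every library. EPHA2 (ENSG00000142627, chromosome 1, 16124337 to 16156087 on GRCh38, minus strand) measured 140.2 and 76.4 FPKM in input 1 and input 2, and 584 and 1743 FPKM in RIP 1 and RIP 2. Both RIP libraries were above both inputs, and RIP 2 was the highest. This was an excess of 3.27 on the log2 scale (SE 0.75, limma adjusted p = 0.0206). Its rank by FPKM among all identifiers went from 425 in input 1 and 857 in input 2 to 20 in RIP 1 and 5 in RIP 2. Without RIP 2 the log2 fold change was 2.48, and with RIP 2 adjusted for position it was 2.38 (adjusted p = 0.0067). When genes with low values were kept in the test, it was no longer called (adjusted p = 0.0572). EPHA2 held 86.8% and 85.4% of the summed FPKM of 14 Eph receptors in the inputs, and 90.5% and 95.7% in RIP. These shares were not adjusted for the chromosome 1 excess of RIP 2.

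EPHB2, a receptor for B-type ephrins that also binds EFNA5, followed the same pattern at a lower level. EPHB2 (ENSG00000133216, chromosome 1, 22710839 to 22921500, plus strand) measured 7.01 and 4.40 FPKM in input 1 and input 2, and 30.5 and 69.0 FPKM in RIP 1 and RIP 2. The groups did not overlap, and RIP 2 was again the highest library. The log2 fold change was 2.84 (SE 0.57, adjusted p = 0.0153), with 2.26 without RIP 2 and 1.82 with RIP 2 adjusted for position (adjusted p = 0.0174). It was the only one of the 8 still called when genes with low values were kept (adjusted p = 0.0409). The union of its exons spans 12516 bases and its reference transcript 3677, so its FPKM depends on the length the authors used, which is not given in the sources used here.

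EPHB4, the receptor for EFNB2 known from veins, did not share this direction. EPHB4 (ENSG00000196411, chromosome 7, 100802565 to 100827521, minus strand) measured 7.97 and 5.75 FPKM in input 1 and input 2, and 10.9 and 2.40 FPKM in RIP 1 and RIP 2. RIP 1 was above both inputs and RIP 2 below both, so the groups overlapped. The log2 fold change of -0.29 (SE 0.70, adjusted p = 0.752) was smaller than its error, and it was 0.61 without RIP 2 and -1.19 without RIP 1.

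EPHA4, which binds ephrins of both types, was near the lower limit of what was tested. EPHA4 (ENSG00000116106, chromosome 2, 221418027 to 221574202, minus strand) measured 2.54 and 0.471 FPKM in input 1 and input 2, and 5.98 and 1.77 FPKM in RIP 1 and RIP 2. RIP 2 lay between the inputs, which differed from each other 5.39-fold. RIP exceeded input by 0.95 on the log2 scale (SE 0.64, adjusted p = 0.263). The value was 0.28 without RIP 1, 0.31 without input 2, 1.58 without input 1 and 1.61 without RIP 2, and it was not called in any of these. EPHB6, a receptor without kinase activity (ENSG00000106123, chromosome 7, 142855061 to 142871094, plus strand), was listed at 0 in all 4 libraries, and no fold is given.

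Of the ephrins, EFNB2 passed the test. EFNB2 encodes a transmembrane ligand of EPHB4 and other EphB receptors, known from arterial endothelium (ENSG00000125266, chromosome 13, 106489731 to 106535662, minus strand). It measured 7.74 and 4.13 FPKM in input 1 and input 2, and 55.8 and 18.7 FPKM in RIP 1 and RIP 2. Both RIP libraries were above both inputs, and here RIP 1 was the highest. RIP exceeded input by 2.32 on the log2 scale (SE 0.66, adjusted p = 0.0353). The value was 3.09 without RIP 2, 1.55 without RIP 1 and 2.49 with RIP 2 adjusted for position (adjusted p = 0.0105). It too was not called when genes with low values were kept (adjusted p = 0.0747). Its chromosome had no excess in RIP 2.

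EFNB1, the closest relative of EFNB2 among the 9, was the most abundant ephrin in the inputs. EFNB1 (ENSG00000090776, chromosome X, 68828997 to 68842147, plus strand) measured 20.1 and 12.7 FPKM in input 1 and input 2, and 40.8 and 17.7 FPKM in RIP 1 and RIP 2. RIP 2 lay between the inputs. Its excess of 0.72 on the log2 scale (SE 0.57, adjusted p = 0.339) was not called. Single libraries moved this excess from 0.13 without RIP 1 and 0.41 without input 2 to 1.30 without RIP 2.

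The A-type ephrins had close replicates and missed the threshold. EFNA5 (ENSG00000184349, chromosome 5, 107376889 to 107670895, minus strand), a ligand of EphA receptors and of EPHB2, measured 6.09 and 6.93 FPKM in input 1 and input 2, and 13.4 and 15.4 FPKM in RIP 1 and RIP 2. EFNA1 (ENSG00000169242, chromosome 1, 155127460 to 155134857, plus strand), the best known ligand of EPHA2, measured 0.507 and 0.564 FPKM in input 1 and input 2, and 1.67 and 2.17 FPKM in RIP 1 and RIP 2. In both genes the RIP libraries were above the inputs, and the libraries of a group were closer to each other than in any other of the 8. The log2 fold change was 1.03 for EFNA5 (SE 0.47, adjusted p = 0.117) and 0.92 for EFNA1 (SE 0.32, adjusted p = 0.0605). EFNA5 passed with RIP 2 adjusted for position (1.23, limma adjusted p = 0.034). Its 10 Mb bin held 11 genes, too few to be used, so the chromosome 5 median of -0.39 was subtracted. The median of that bin was 0.24, and a fit with it was not run. EFNA1 passed after quantile normalization (1.33, adjusted p = 0.0268). It had 1.05 without RIP 1, 0.80 without RIP 2 and 0.30 with RIP 2 adjusted for position (adjusted p = 0.557). EFNA1 had to be higher in RIP to pass the filter. Without it, 4 of 7 genes had both RIP libraries above both inputs, as did 35.7% of all genes tested, and none had both below, against 40.1% of all genes tested.

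**Figure D2:**
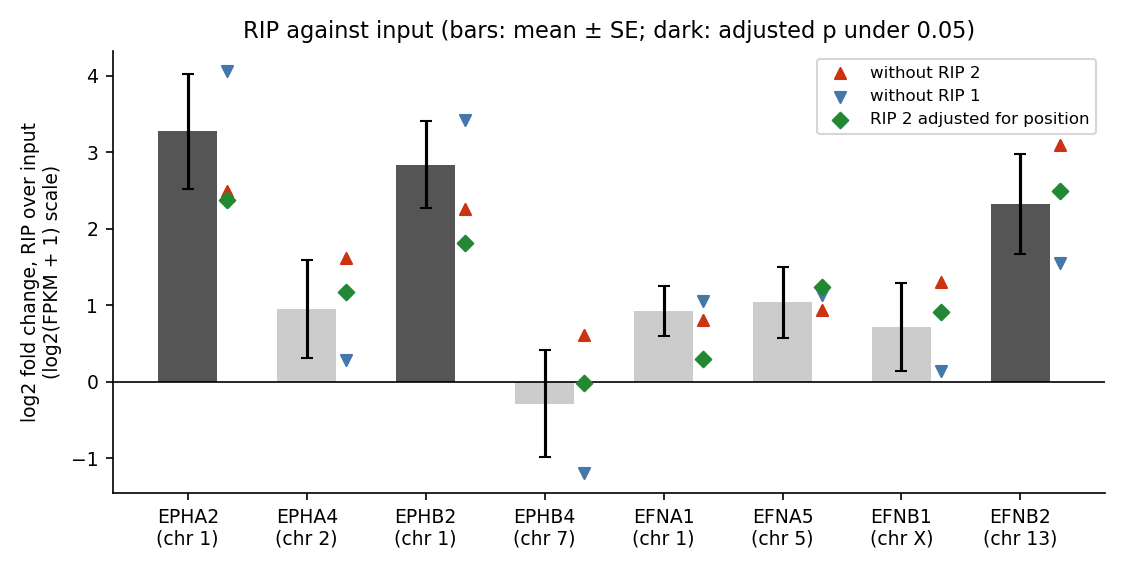
Log2 fold change of RIP over input on the log2(FPKM + 1) scale, with bars for the mean, whiskers for the SE and dark bars for an adjusted p under 0.05, and markers for the same value without RIP 2, without RIP 1 and with RIP 2 adjusted for position. EPHA2, EPHB2 and EFNB2 stay above 1.5 under these 3 alternatives, and EPHB4 lies on both sides of 0.

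The order of the levels differed between input and RIP. By mean FPKM in input, EPHA2 (108 ± 45.1, SD, n = 2) was followed by EFNB1 (16.4 ± 5.20), and then by EPHB4, EFNA5, EFNB2 and EPHB2, whose means lay between 5.70 and 6.86 FPKM and whose libraries overlapped. EPHA4 (1.51 ± 1.46) and EFNA1 (0.535 ± 0.0402) also overlapped in input. In RIP, EPHA2 (1164 ± 820) was followed by EPHB2 (49.8 ± 27.2), EFNB2 (37.2 ± 26.3) and EFNB1 (29.2 ± 16.4), whose libraries overlapped. EFNA5 (14.4 ± 1.47) came next, ahead of EPHB4 (6.64 ± 6.003), EPHA4 (3.88 ± 2.98) and EFNA1 (1.92 ± 0.355), and among these only EFNA5 was clear of its lower neighbour. EFNB1 held 51.2% and 46.5% of the summed FPKM of 8 ephrins in the inputs and 33.8% and 24.2% in RIP, while EFNB2 held 19.7% and 15.1% in the inputs and 46.2% and 25.6% in RIP. EFNA4, which lies on chromosome 1 with its excess signal in RIP 2, held 9.47% and 7.89% in the inputs, 6.80% in RIP 1 and 23.4% in RIP 2.

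Ratios between pairs of genes within a library are untouched by how the library was scaled. Computed for 5 pairs chosen after the values were seen, they are a description, since the smallest two-sided p an exact permutation of 2 against 2 libraries can give is 0.333. EFNB2 stood at 0.385 and 0.324 of EFNB1 in the inputs and at 1.37 and 1.06 of it in RIP. Its share relative to EFNB1 was thus 3.55 times larger in RIP 1 than in input 1, and 3.26 times larger in RIP 2 than in input 2. Neither gene lies on a chromosome with excess signal in RIP 2, and both transcripts hold the near-identical GGACT site shown above. The reference transcripts differ in length, 4995 bases for EFNB2 and 3314 for EFNB1, and in GGACT copies, 9 and 5. The part of these features in the ratio was not tested. The ratio of EPHB2 to EPHB4 was 0.879 and 0.765 in the inputs and 2.80 and 28.8 in RIP, with only EPHB2 on chromosome 1. EPHA2 and EPHB2, both on chromosome 1, kept a ratio between 17.4 and 25.3 in all 4 libraries. EFNA5 was 12.01 and 12.3 times EFNA1 in the inputs and 7.99 and 7.10 times it in RIP. The ratio of EPHA2 to EPHA4 was 55.2 and 162 in the inputs and 97.7 and 984 in RIP, and these overlapped.

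**Figure D3:**
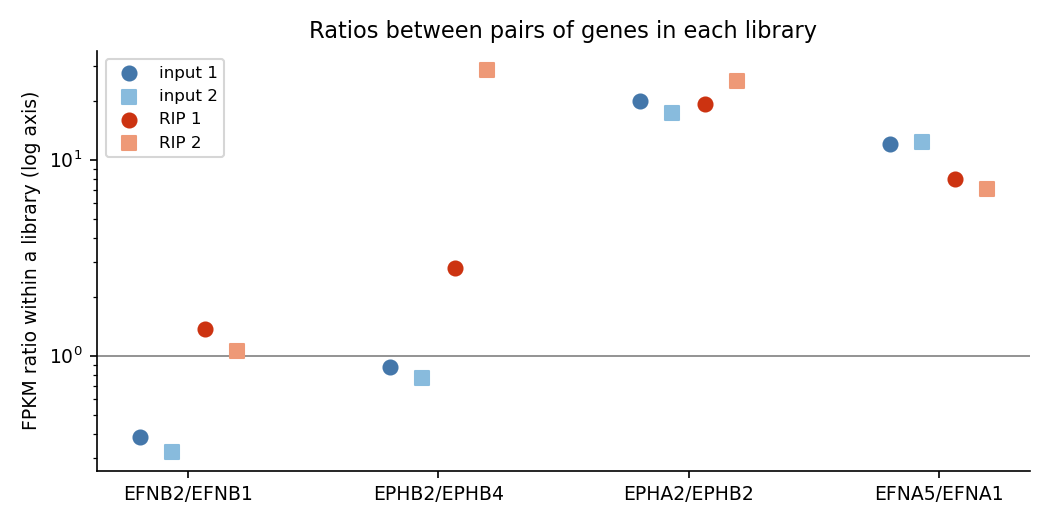
FPKM of one gene divided by that of another within each library, on a log axis, with the line at a ratio of 1. EFNB2 to EFNB1 lies at 0.385 and 0.324 in input and 1.37 and 1.06 in RIP, whereas EPHA2 to EPHB2 stays between 17.4 and 25.3.

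The RIP libraries differed from each other in a way that split the genes. On log2(FPKM + 1), RIP 2 minus RIP 1 was 1.58 for EPHA2, 1.15 for EPHB2 and 0.25 for EFNA1, and the median of the 1136 protein-coding genes of chromosome 1 was 1.67. In its own 10 Mb bin the median was 1.79 for EPHA2, 2.04 for EPHB2 and 1.25 for EFNA1, so for all 3 the excess over RIP 1 was smaller than the median of their bin. Among the others, EPHB4 had -1.81, EFNB2 -1.53, EPHA4 -1.33 and EFNB1 -1.17, each below the median of its chromosome, which lay between -0.53 and -0.34. EFNA5 had 0.19 against a median of -0.39 for chromosome 5 and of 0.24 for the 11 genes of its 10 Mb bin. The 4 genes with lower values in RIP 2 also had lower values in input 2 than in input 1, by 1.39-fold for EPHB4, 1.58-fold for EFNB1, 1.88-fold for EFNB2 and 5.39-fold for EPHA4. EFNA5 and EFNA1 had slightly higher values in input 2, and EPHA2 and EPHB2 lower ones. The sample titles give input 1 and RIP 1 one suffix and input 2 and RIP 2 another, with no meaning given in the labels. Between libraries of one suffix, the ratio of RIP to input was 7.21 and 4.52 for EFNB2, 2.03 and 1.39 for EFNB1, 2.35 and 3.76 for EPHA4, and 1.37 and 0.417 for EPHB4. It was 2.19 and 2.23 for EFNA5 and 3.30 and 3.86 for EFNA1, and 4.17 and 22.8 for EPHA2 and 4.35 and 15.7 for EPHB2. Among the 6 genes at 1 FPKM or more in both inputs, RIP was above input within both suffixes in all but EPHB4, as it was in 40% of all genes tested.

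**Figure D4:**
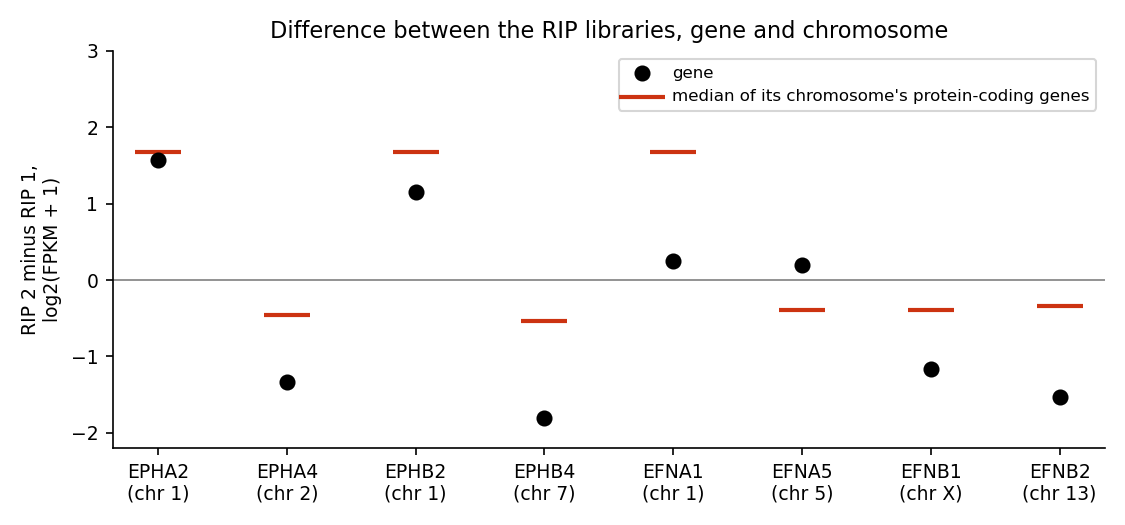
RIP 2 minus RIP 1 on the log2(FPKM + 1) scale for each gene (black points) and the median of the protein-coding genes tested on its chromosome (red lines). The 3 genes on chromosome 1 lie above 0 and below their chromosome's median, and EPHA4, EPHB4, EFNB1 and EFNB2 lie under theirs.

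Transcript length moved with the fold change over the whole table. Among protein-coding genes tested, the median log2 fold change rose from -2.01 in the tenth with the shortest reference transcripts to 0.86 in the tenth with the longest. EPHA2 (3964 bases), EPHB2 (3677) and EFNB2 (4995) lay above the 75th percentile of their length decile, which was 1.38, 1.49 and 1.51. EPHB4 (4329), EFNB1 (3314), EFNA5 (5335), EPHA4 (6346) and EFNA1 (1926) lay between the 25th and the 75th percentile of theirs. By GGACT density, the decile with the fewest copies per kilobase had a median log2 fold change of -1.15 and a median length of 1848 bases, and the other 9 had medians between -0.13 and 0.46. EPHA2 and EPHB2 were in the decile with the most copies, whose median was 0.11, and EFNB2 and EPHB4 were in the one below it. Genes with a GGACT within 100 bases of the stop codon had a median of 0.33, and the others 0.05. The part of length or of the motif in these results was not tested.

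**Figure D5:**
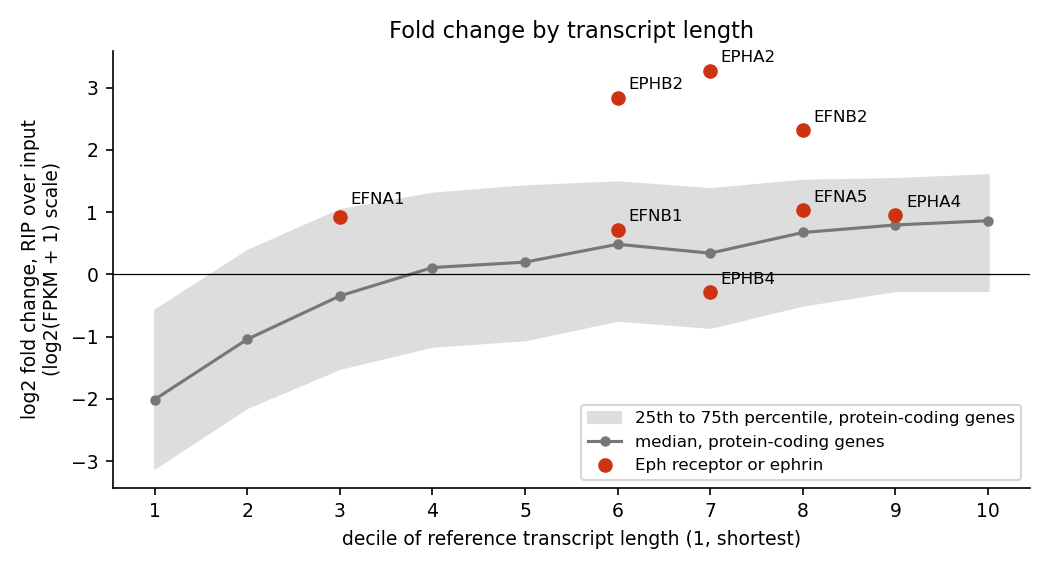
Log2 fold change of RIP over input (log2(FPKM + 1) scale) by decile of reference transcript length, with the median and the 25th to 75th percentile of protein-coding genes tested (grey) and the 8 Eph receptor and ephrin genes (red). EPHA2, EPHB2 and EFNB2 lie above the grey band and the other 5 within it.

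Most of the rest of the family was listed at or near 0. Of the 13 other Eph receptor and ephrin genes, 3 passed the filter, and none of those was called (0 higher and 0 lower in limma). EFNA4, an A-type ephrin on chromosome 1, measured 3.72 and 2.16 FPKM in input 1 and input 2, and 8.22 and 17.1 FPKM in RIP 1 and RIP 2. Its log2 difference of 1.74 (SE 0.57) missed the threshold (adjusted p = 0.0501). EPHA5, a receptor on chromosome 4, measured 2.16 and 1.05 FPKM in input 1 and input 2, and 3.85 and 2.26 FPKM in RIP 1 and RIP 2 (a log2 difference of 0.64, with SE 0.45 and adjusted p = 0.28), and EFNA3, an A-type ephrin on chromosome 1, differed by 0.31 (SE 0.36, adjusted p = 0.514). EPHA1, EPHA8, EPHA10, EFNA2 and EFNB3 were listed at 0 in all 4 libraries. EPHA3, EPHA6, EPHA7, EPHB1 and EPHB3 were below 0.75 FPKM in both inputs, and EPHA6 had the highest RIP value among them, 3.60 FPKM in RIP 1.

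Of the adaptors and cytoplasmic tyrosine kinases that Eph receptors or ephrins use, 7 of 20 tested were higher in RIP (35%, beside 15.4% of all genes tested) and 2 were lower (10%, beside 24.3%), and their median log2 fold change was 1.32 against -0.10 over all genes. One of the 7, CBLB, named for this reason only, would not have passed the filter on its inputs alone. NCK1, an adaptor that links phosphotyrosine to actin, measured 12.8 and 10.98 FPKM in input 1 and input 2, and 69.2 and 64.4 FPKM in RIP 1 and RIP 2 (2.40 on the log2 scale, SE 0.44, adjusted p = 0.0128). CRKL, an adaptor of the CRK family, rose by 2.27 (SE 0.44, adjusted p = 0.0145). The kinase genes ABL2, on chromosome 1, and ABL1 had log2 fold changes of 2.99 (adjusted p = 0.0166) and 2.38 (adjusted p = 0.0316). The Src family kinase gene YES1 was lower (-1.87, adjusted p = 0.0236), as was SDCBP, which encodes syntenin, a PDZ protein that binds the tails of B-type ephrins (-1.68, adjusted p = 0.0448). CRK had 1.48 and did not pass (adjusted p = 0.0552).

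The GTPases and cytoskeletal proteins at the end of the pathway had a median of -0.71 on the same scale. Of 15 tested, 0 were higher, beside 15.4% of all genes tested, and 4 were lower (limma). The share lower, 26.7%, was near the 24.3% of all genes tested. RHOA, the GTPase through which EphA receptors contract the cytoskeleton, measured 208 and 216 FPKM in input 1 and input 2, and 22.8 and 21.1 FPKM in RIP 1 and RIP 2 (-3.21 on the log2 scale, SE 0.45, adjusted p = 0.00889). CFL1, which encodes the actin-severing protein cofilin, had -1.95 (adjusted p = 0.0336), ARPC2, a subunit of the Arp2/3 complex, had -1.88 (adjusted p = 0.0458), and WASL, which activates that complex, had -1.70 (adjusted p = 0.0294). CDC42 had -1.32 and did not pass (adjusted p = 0.24). The median transcript length was 3219 bases in this list and 4634.5 bases among the adaptors and kinases, and its part in the difference was not tested.

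Of 9 phosphatases and proteases that act on Eph receptors or ephrins, 1 was higher and 1 lower (11.1% each, beside 15.4% and 24.3% of all genes tested). PTPRF, a receptor phosphatase on chromosome 1, rose by 2.33 on the log2 scale (limma adjusted p = 0.037). ACP1, the low molecular weight phosphatase, had -3.59 (adjusted p = 0.00873). PTPN13, which would not have passed the filter on its inputs alone, had 1.38 and was not called (adjusted p = 0.0586). Over all 55 pathway genes tested, including others not reported here, 11 genes were higher and 8 lower, that is 20% and 14.5%, beside 15.4% and 24.3% of all genes tested.

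Among the genes whose 4 values were closest to those of EPHB2, the receptor with the smallest p, were PLEKHO1 and FRMD4A. Their Euclidean distances on log2(FPKM + 1) were 0.449 and 0.478 over the 4 libraries, among 10842 protein-coding genes outside the family. PLEKHO1 lies on chromosome 1 and FRMD4A on chromosome 10. Closest to EFNB2, the ephrin with the smallest p, were ZBED4 (0.256), PLEKHM1 (0.271) and RNF103 (0.355), on chromosomes 22, 17 and 2.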

How the data were processed

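RIP-seq was deposited as 1 table with 1 value per gene and library for 2 input and 2 YTHDF3 RIP libraries, grouped by their titles and numbered in accession order. No header or label names the unit. The values the authors deposited are taken as FPKM, because library sums were unequal (700141 and 690869 for input, 301226 and 301483 for RIP) while the sums weighted by exon length lie between 1566173 and 1733992. HISAT2 and GRCh38 (hg38) are named in the submitters' processing notes, and the counting program, annotation, filters and strand setting are not stated there. Libraries were prepared with a stranded mRNA kit, per the labels' protocols.

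Of 36217 rows, 14 repeated identifiers were dropped. Positions and transcripts came from GENCODE release 29 (GRCh38), which held 36125 of the 36203 identifiers. The reference transcript was the one with the best APPRIS principal level, then the longest. GGACT was searched on the sense strand only. Low values were whole multiples of 1 assumed read, within 0.03, in 30.4% to 32.5% of cases, so reads were not recovered, no count test was run and no counting interval is given.

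RIP was compared with input by limma 3.58.1, run in R 4.3.3 with its moderated test and a trend of variance on mean, on log2(FPKM + 1), over the 12848 genes that reached 1 FPKM in at least 2 of 4 libraries, with no block and two-sided Benjamini-Hochberg adjusted p-values over all of them. The test was checked on simulated data. Alternatives were a pseudocount of 0.1, no filter, quantile normalization, rescaling to protein-coding genes outside chromosomes 1 and 10, RIP 2 adjusted for position (the median RIP 2 minus RIP 1 difference of the 10 Mb bin, or of the chromosome where a bin held under 20 genes, was subtracted), no trend, a replicate block, and each library left out. The members, lists and alternatives were chosen with earlier results of these data known. Genes named were the members, the rest of the family, of each list the 4 with the smallest p called in each direction and the largest change not called, and the 3 closest genes of 1 receptor and 1 ephrin. Results for 1 gene list and 1 close gene that the rule gives are not reported here.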

Additional observations from a re-analysis of the deposited data

How the results depend on the processing

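Over the 11 alternatives, the log2 fold changes kept their sign in all of the 8 genes but EPHB4, which was -0.29 on the deposited values 0.61 without RIP 2 and -1.19 without RIP 1. EPHA2 ranged from 2.38 to 4.84, EPHB2 from 1.82 to 3.41 and EFNB2 from 1.55 to 3.09. EPHA2 and EFNB2 missed the threshold in 3 alternatives each and EPHB2 in 2, namely without either input and, for EPHA2 and EFNB2, with no filter on low values. With no filter, 718 genes were higher in the whole table, 1 of the 9 was higher, and 3 of the pathway genes were higher and 4 lower. Genes called higher numbered 3085 after quantile normalization and 3622 with RIP 2 adjusted for position, and pathway genes called higher 20 and 22, against 6 with a pseudocount of 0.1. Leaving out 1 library at a time gave 0 to 3515 genes higher and 0 to 3933 lower, 0 to 4 of the 9 higher and 0 lower, and 0 to 18 pathway genes higher and 0 to 11 lower. The zeros came from leaving out either input, where the spread came from the RIP libraries alone. With a RIP library left out it came from the inputs alone. The median SD between libraries was 0.245 for input and 0.536 for RIP on the log2 scale. The part of this spread in the zeros was not tested. With the title suffix as a replicate block, 3 of the 9 were higher and 0 lower, with 2477 genes higher and 3466 lower in all. Deviations of libraries with the same suffix from their group means correlated with r = 0.214 across genes, and the labels do not say that the suffix pairs them. The depth is unknown, so a listed 0 cannot be given a limit, and RIP 2 was the shallowest library by the estimate above.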
